A study of Mus musculus with 6 samples.

Results

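The Nrf2 and oxidative stress genes described here are Nfe2l2, Keap1, Hmox1, Nqo1, Gclc, Gclm, Srxn1, Txnrd1, Slc7a11 and Gsr, measured in single cells of mouse tumours. They were chosen by name and not by measured values, and all 10 were among the 31053 genes of every count matrix. Tumours grew from YUMMER1.7, a mouse melanoma line that carries additional mutations from ultraviolet light, after 600000 cells had been placed under the skin of male C57Bl/6 mice aged 6 to 8 weeks. The exercise group (libraries 5, 6 and 8) ran on 14 days, in daily bouts of 45 minutes and with the speed set to 12 metres per minute, and the mice of the sedentary group (libraries 1, 2 and 3) were kept without it. No genetic change or drug is given for either group, and both groups carry the same tumour line. Whole tumours were dissociated without sorting, so each library held tumour, immune and stromal cells, and the labels do not say whether a library came from 1 mouse or from a pool.

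Nfe2l2 encodes Nrf2, the transcription factor that turns on antioxidant genes. Keap1 is the adaptor that holds Nrf2 for ubiquitination, and oxidants that modify Keap1 let Nrf2 accumulate in the nucleus, where it pairs with a small Maf protein on antioxidant response elements. Because this step acts on the protein, the RNA of Nfe2l2 and Keap1 says little about Nrf2 activity. Several of the target genes also answer to other factors: Slc7a11 is a target of ATF4, and Hmox1 is held down by Bach1 and induced by heme and, in some cells, by hypoxia.

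All 10 are protein-coding genes (build GRCm38, genes read on the strand given). The regulators lie at chr2:75675513-75704641 (Nfe2l2, minus) and chr9:21229730-21239361 (Keap1, minus). The glutathione genes lie at chr3:49892526-50443614 (Slc7a11, minus), chr9:77754535-77794485 (Gclc, plus), chr3:122245557-122270732 (Gclm, plus) and chr8:33652523-33698163 (Gsr, plus). The others lie at chr8:75093621-75100589 (Hmox1, plus), chr8:107388225-107403206 (Nqo1, minus), chr2:152105516-152111376 (Srxn1, plus) and chr10:82833951-82897712 (Txnrd1, plus).

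Promoter sequence was available for 7 of the 10 genes from RefSeq (build GRCm38.p6), and Hmox1, Gclc and Gsr had no entry. The windows searched ran from 250 bases before to 50 bases after a start site, and Txnrd1 had 3 of the 9 windows. The core of the antioxidant response element was searched as TGACNNNGC, the amino acid response element, on which ATF4 acts, as TGATGNAA, and the core of the hypoxia response element as ACGTG, each on both strands. Of all 32851 windows in the table, 12.4% held the first, 3.97% the second and 19.6% the third. Among the 9 windows of these genes, 4 held the antioxidant core, 1 held the amino acid element and 2 held the hypoxia core. Sequences are shown for the 4 windows with an antioxidant or amino acid element before the start: they let the cystine carrier, which carries the ATF4 element, be set beside genes with the Nrf2 element. Capitals mark the matches to those 2 elements, and each run is the 250 bases before the start, 5′ to 3′ on the strand of the gene.
Slc7a11, chr3:50443614-50443863, minus strand: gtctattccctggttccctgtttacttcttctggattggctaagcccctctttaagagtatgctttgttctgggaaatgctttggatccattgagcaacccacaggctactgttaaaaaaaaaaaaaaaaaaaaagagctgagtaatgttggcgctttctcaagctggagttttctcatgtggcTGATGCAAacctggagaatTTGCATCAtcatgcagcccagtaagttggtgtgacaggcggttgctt
Nfe2l2, chr2:75704664-75704913, minus strand: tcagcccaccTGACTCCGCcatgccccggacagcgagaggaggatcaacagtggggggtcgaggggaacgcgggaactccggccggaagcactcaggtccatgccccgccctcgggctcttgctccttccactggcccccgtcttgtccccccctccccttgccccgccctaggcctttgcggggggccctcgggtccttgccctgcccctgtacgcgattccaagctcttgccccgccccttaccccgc
Gclm, chr3:122245307-122245556, plus strand: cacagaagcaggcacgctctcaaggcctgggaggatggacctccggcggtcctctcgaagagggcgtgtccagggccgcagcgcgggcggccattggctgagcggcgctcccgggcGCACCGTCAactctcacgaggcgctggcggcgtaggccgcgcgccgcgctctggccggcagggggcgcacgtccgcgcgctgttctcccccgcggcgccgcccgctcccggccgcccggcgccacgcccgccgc
Txnrd1 (another start), chr10:82858956-82859205, plus strand: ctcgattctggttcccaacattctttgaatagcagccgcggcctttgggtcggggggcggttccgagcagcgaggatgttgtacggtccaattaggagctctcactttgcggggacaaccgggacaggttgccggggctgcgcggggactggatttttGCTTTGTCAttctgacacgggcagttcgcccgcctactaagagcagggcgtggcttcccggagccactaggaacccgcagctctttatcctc

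In the Slc7a11 window the amino acid element stood from 66 to 59 bases before the start, and again on the opposite strand from 47 to 40 bases before it. The antioxidant core stood 240 to 232 bases before the start of Nfe2l2, on the gene's strand. It stood on the opposite strand 134 to 126 bases before the start of Gclm and 92 to 84 bases before that start of Txnrd1. The hypoxia core, not capitalised, stood on the opposite strand 67 to 63 bases before the start of Gclm and 223 to 219 bases before that of Keap1, whose window is not shown. A match is a string of letters and not a bound site, and a window without one says nothing about the factor.

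The 6 libraries held between 97426009 and 131778565 UMIs (unique molecular identifiers, each 1 captured RNA molecule), and 51406 of 58351 barcodes were kept as cells. Median depth was lowest in exercise 5 (5902 UMIs per cell) and sedentary 2 (6499) and reached 12426.5 UMIs in sedentary 1. Among kept cells, 299 barcodes occurred in more than 1 library. Cells were assigned to classes by marker genes that include none of the 10. The main non-immune population (29509 cells) and macrophage-like (7995), T-like (3660), NK-like (897) and neutrophil-like cells (708) had enough cells in every library to be compared. The main population is not called melanoma here, since pigment genes were almost absent from it. Among 607917717 UMIs, 158 of Pmel, 9 of Dct, 7 of Mlana, 5 of Tyr, 2 of Sox10 and 1 of Tyrp1 were counted. Mitf and Cspg4, which are among the markers of the class, had 10.1 and 47.6 CPM. Levels are UMIs summed over the cells of a class and library, scaled to the total of that sum (CPM, counts per 1000000), with SD over libraries. Only 3′ ends were counted, so CPM was not divided by gene length, and 1 UMI stands for 1 molecule of either a long or a short transcript.

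**Figure D1:**
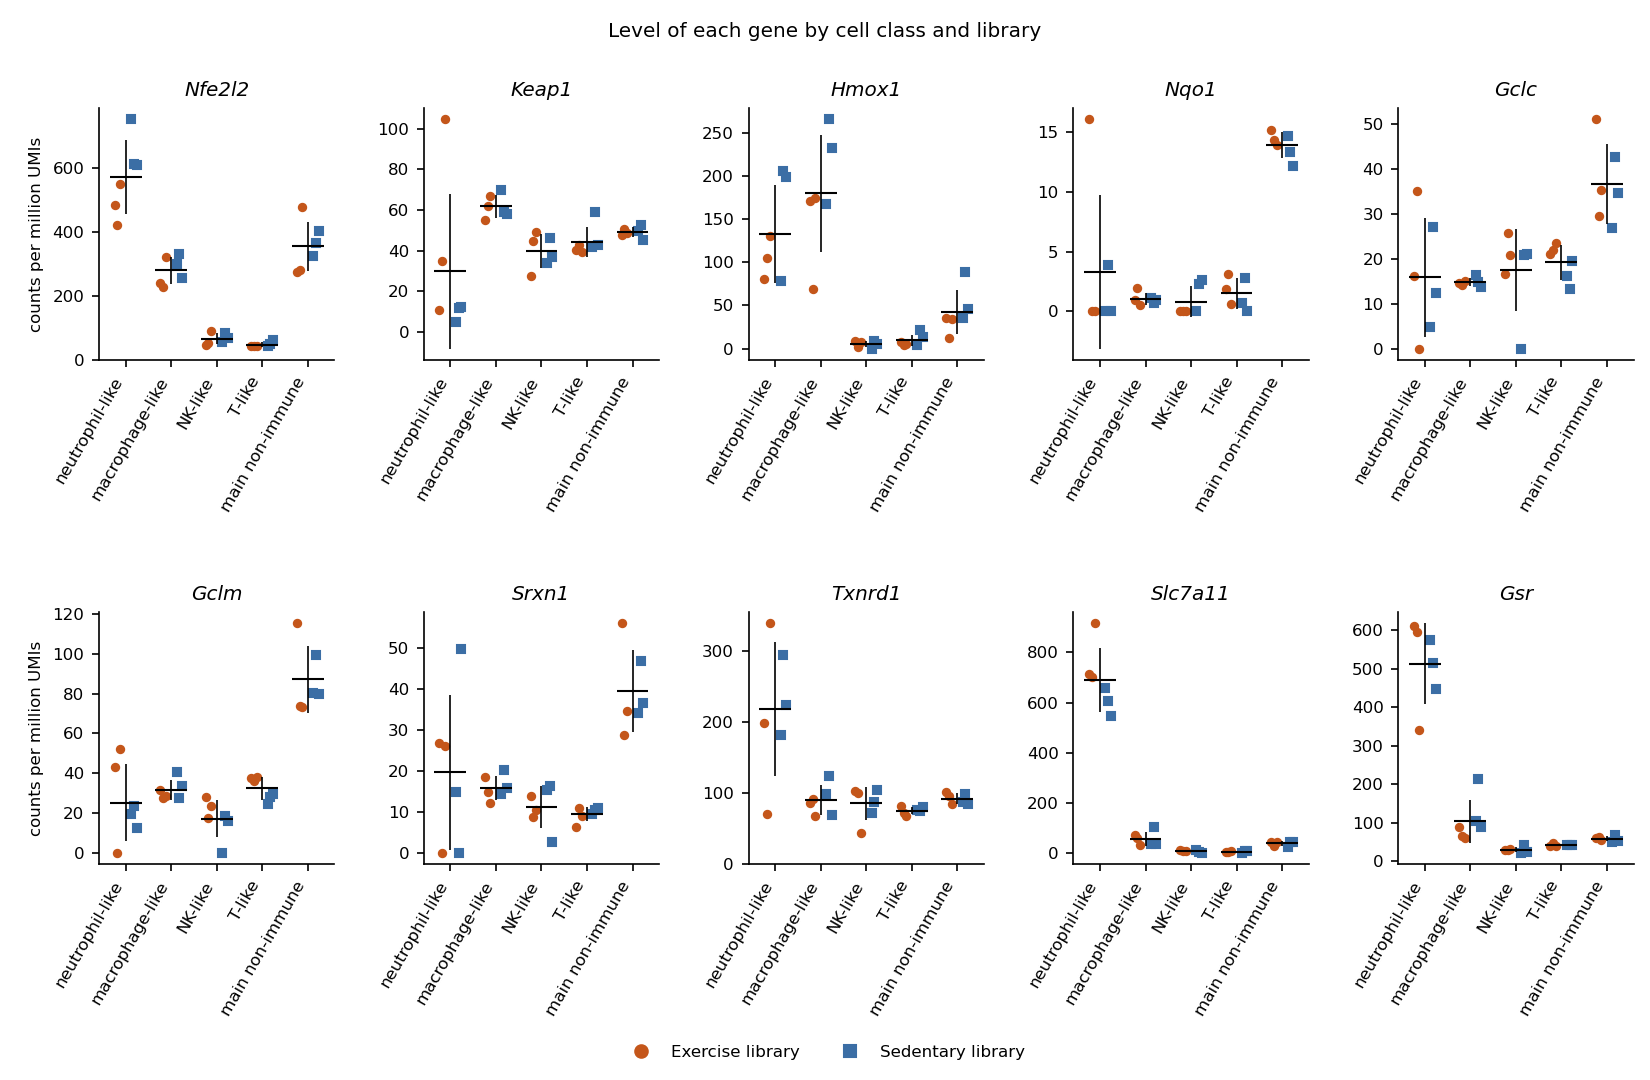
CPM (linear axes, each gene on its own scale) of the 10 genes in 5 classes, with 1 point per library, exercise left of sedentary, a horizontal line at the mean of the 6 libraries and a vertical line of 1 SD either way. Slc7a11 and Gsr are highest in neutrophil-like cells (means of 689.5 and 514 CPM), Hmox1 in macrophage-like cells (179.8 CPM), and Nqo1, Gclc, Gclm and Srxn1 in the main population.

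Nfe2l2 and its inhibitor Keap1 were laid out differently over the classes. In neutrophil-like cells Nfe2l2 had 482, 420.2 and 549 CPM in exercise 5, 6 and 8 and 750.4, 613 and 609 CPM in sedentary 1, 2 and 3. In the main population it had 276, 281 and 477 CPM in the exercise libraries and 325, 365 and 402 CPM in the sedentary ones. In T-like cells it had 42.6, 43.7 and 43.6 CPM in the exercise libraries and 42.4, 50.8 and 63.4 CPM in the sedentary ones. The order of the means was neutrophil-like (571), main (354), macrophage-like (279), NK-like (66.6) and T-like (47.7 CPM), and each step of it held in 6 of 6 libraries. Keap1 had 61.8 ± 5.71 CPM in macrophage-like cells, 49.0 ± 2.47 in the main population, 44.5 ± 7.35 in T-like, 39.8 ± 8.28 in NK-like and 29.9 ± 38.1 CPM in neutrophil-like cells (SD, n = 6). Its neutrophil-like mean rests on 12 UMIs, 4 of them in exercise 8 (104.6 CPM), and the pooled level there was 15.1 CPM. Only its top step, macrophage-like over main, held in 6 of 6 libraries.

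Hmox1 encodes heme oxygenase 1, which splits heme into biliverdin, iron and carbon monoxide. In macrophage-like cells it had 171, 68.6 and 174 CPM in exercise 5, 6 and 8 and 168, 265 and 232 CPM in sedentary 1, 2 and 3. In the main population it had 35.2, 12.6 and 33.8 CPM in the exercise libraries and 35.8, 88.9 and 45.7 CPM in the sedentary ones. Exercise 6 was lowest and sedentary 2 highest in both classes, yet macrophage-like cells lay above the main population in 6 of 6 libraries. The means ran from macrophage-like (179.8) over neutrophil-like (133), main (42.0) and T-like (9.41) to NK-like cells (5.39 CPM). The first and last steps of this order did not hold in every library, with 5 of 6 and 4 of 6 libraries in that direction.

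Nqo1, a quinone reductase and a common readout of Nrf2, was highest in the main population of the classes compared. It had 15.2, 14.3 and 13.9 CPM there in the exercise libraries and 14.7, 13.4 and 12.1 CPM in the sedentary ones. The averages were 3.33 ± 6.44 in neutrophil-like, 1.52 ± 1.29 in T-like, 1.04 ± 0.502 in macrophage-like and 0.823 ± 1.28 CPM in NK-like cells. The neutrophil-like mean rests on 2 libraries, exercise 5 (16.1 CPM) and sedentary 2 (3.88 CPM), with no UMI in the others.

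Among the genes that serve glutathione, Slc7a11 is the cystine carrier subunit xCT, Gclc and Gclm are the catalytic and modifier subunits of glutamate-cysteine ligase, which makes the glutathione precursor, and Gsr reduces oxidised glutathione. Slc7a11 had 713, 700.3 and 915 CPM in neutrophil-like cells of the exercise libraries and 657, 605 and 547 CPM in those of the sedentary libraries. Macrophage-like cells had 71.8, 58.8 and 31.9 CPM in the exercise libraries and 35.97, 105 and 35.1 CPM in the sedentary ones, a range that overlaps that of the main population (25.5 to 45.9 CPM). Gsr had 611, 595 and 340.0 CPM in neutrophil-like cells of the exercise libraries and 574, 516 and 447 CPM in those of the sedentary ones, against 49.996 to 67.8 CPM over the 6 libraries of the main population. The 4 steps of the order of Gsr (neutrophil-like, macrophage-like, main, T-like, NK-like) each held in 6 of 6 libraries.

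Both ligase subunits were instead highest in the main population. Gclm averaged 87.2 ± 16.8 CPM there, 32.3 ± 5.68 in T-like, 31.5 ± 5.05 in macrophage-like, 25.1 ± 19.4 in neutrophil-like and 17.1 ± 9.48 CPM in NK-like cells (SD, n = 6). Gclc averaged 36.7 ± 8.89 CPM in the main population and between 14.8 and 19.2 CPM in the other 4 classes. For both, only the step from main to T-like held in all 6 libraries, and no step between immune classes did.

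Txnrd1, which reduces thioredoxin, averaged 218 ± 94.2 CPM in neutrophil-like cells, 92.2 ± 7.46 in the main population, 89.6 ± 21.1 in macrophage-like, 85.2 ± 23.5 in NK-like and 75.3 ± 5.21 CPM in T-like cells, and no step held in all 6 libraries. Srxn1 encodes sulfiredoxin, which repairs overoxidised peroxiredoxins. It averaged 39.5 ± 10.0 CPM in the main population, 19.6 ± 18.9 in neutrophil-like, 15.9 ± 2.94 in macrophage-like, 11.1 ± 5.08 in NK-like and 9.46 ± 1.77 CPM in T-like cells, again with no step in all 6. Over the 10 genes, 15 of 40 neighbouring pairs were ordered the same way in 6 of 6 libraries. An exact two-sided sign-flip test over 6 libraries can reach no less than 0.03125. After Benjamini-Hochberg adjustment over the 40 pairs the smallest p of this test was 0.0833, so no neighbouring pair passed. With that floor a pair can pass only if many other pairs reach it too, however large its difference. The order was also taken from the same means, so the test cannot decide it.

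Smaller classes allowed pooled counts only, with exact 95% Poisson intervals that cover counting error. Fibroblast-like cells (85) had Nfe2l2 at 283 CPM (250.2 to 319.5) and Hmox1 at 55.6 CPM (41.5 to 72.9). Dendritic-like cells (209) had Txnrd1 at 87.2 CPM (72.5 to 104) but Hmox1 at 4.22 CPM (1.55 to 9.18), on 6 UMIs. Plasmacytoid dendritic-like cells (84) had no UMI of Hmox1 among 299746, which allows up to 10.0 CPM at 3 counts, and Gsr at 70.1 CPM (43.4 to 107). B-like cells (62) had no UMI of Hmox1 or Slc7a11 among 107018, which allows up to 28.0 CPM.

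Compared with the main population within the same libraries, the genes moved in both directions in myeloid cells and downward in lymphoid cells. In macrophage-like cells 4 rose and 5 fell of 10 tested, where 80.2% of all 13709 genes tested were called, 38.2% higher and 42.1% lower. Hmox1 rose by 2.25 on the log2 scale (SE 0.10, edgeR adjusted p = 2.97e-10). Gsr (0.77, SE 0.18), Slc7a11 (0.51, SE 0.21) and Keap1 (0.38, SE 0.06) were also higher, each past the threshold. Nqo1 fell by 3.76, Gclm by 1.42, Gclc by 1.25, Srxn1 by 1.25 and Nfe2l2 by 0.28 on the log2 scale. Txnrd1 differed by -0.01 (SE 0.09, edgeR adjusted p = 0.897). Slc7a11 (edgeR adjusted p = 0.0382) was not called without sedentary 1, sedentary 2, exercise 5 or exercise 6, without the filter on low counts, or without the library block, and Nfe2l2 was not called without the block (edgeR adjusted p = 0.0749).

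In neutrophil-like cells 5 rose and 4 fell of 10 tested, where 43.7% of 12705 genes were called, 16.8% higher and 26.9% lower, and the median of all genes was -0.72. Slc7a11 rose by 4.08 (SE 0.24, edgeR adjusted p = 1.07e-65) and Gsr by 3.11 (SE 0.23, edgeR adjusted p = 7.74e-39), both in 6 of 6 libraries. Hmox1 (1.62, SE 0.26), Txnrd1 (1.27, SE 0.24) and Nfe2l2 (0.69, SE 0.22) were also called higher. Gclm (-1.71, SE 0.35), Keap1 (-1.53, SE 0.42), Srxn1 (-1.22, SE 0.42) and Gclc (-1.14, SE 0.43) were called lower, and Nqo1 was not called (-1.37, SE 0.68, edgeR adjusted p = 0.0896). These results rest on few neutrophil-like UMIs: 21 of Gclm, 12 of Keap1, 13 each of Srxn1 and Gclc, and 4 of Nqo1. Nqo1 was called lower with DESeq2 size factors (-1.50, edgeR adjusted p = 0.0443) and without exercise 5 (-2.92, edgeR adjusted p = 0.0243). Nfe2l2 lost its call without sedentary 1 or sedentary 2, Gclc without sedentary 1 or exercise 5, and Srxn1 without sedentary 2, and Gclc and Srxn1 lost theirs without the library block. Neutrophil-like cells were shallow, with a median of 998.5 UMIs, and exercise 6 and exercise 8 held 29 and 42 of them. In counts simulated for this comparison, 100 genes were changed by 1 and 100 by 2 on the log2 scale. Of these, 14% of those changed by 1 were recovered and 68% of those changed by 2. A gene that was not called here could thus still differ. A UMI of Slc7a11 was found in 44.8% of neutrophil-like cells and in 1.58% of T-like cells, which had a median of 2672 UMIs. The 12 neutrophil markers summed to 891 UMIs per 10000 in this class and 2.97 in macrophage-like cells, while the 15 macrophage markers, some of which neutrophils share, summed to 69.4 in this class and 201.9 in macrophage-like cells.

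T-like cells were lower for all 10 genes, where 75.3% of 13568 genes were called and 40.5% were lower. Slc7a11 (-3.00, SE 0.16), Nfe2l2 (-2.97, SE 0.10), Hmox1 (-2.34, SE 0.15) and Srxn1 (-2.24, SE 0.16) led in abundant genes, Nqo1 fell by 3.24 on the log2 scale, and Keap1 was least lowered (-0.23, SE 0.09, edgeR adjusted p = 0.0305) and not called without sedentary 1, exercise 6 or exercise 8. NK-like cells were lower for 8 of 10, where 57% of 12980 genes were called and 33.1% were lower, with a median of all genes of -0.19. Some of these levels rest on few counts: 2 UMIs of Nqo1, 13 of Hmox1, 18 of Slc7a11 and 26 of Srxn1 among 2405229. Keap1 (-0.34, SE 0.16, edgeR adjusted p = 0.0692) and Txnrd1 (-0.17, SE 0.13, edgeR adjusted p = 0.267) were not called there. Keap1 was called lower with no filter on low counts (edgeR adjusted p = 0.0359), without the library block (0.0398) and without exercise 8 (0.0267).

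Other genes of the pathway were read from 4 lists. They were chosen with earlier results of these data known. In the wider Nrf2 list of targets, macrophage-like cells had 5 higher and 10 lower of 22 tested, led by Me1 (malic enzyme, -3.41), Tkt (transketolase, 1.47) and Taldo1 (transaldolase, 1.89). The heme and iron list was higher for 9 and lower for 1 of 11 in macrophage-like cells. Ferritin light chain Ftl1 had 5029 CPM in macrophage-like cells and 1487 CPM in the main population, and the iron exporter ferroportin, Slc40a1, had 38.6 CPM in macrophage-like cells and 0.246 CPM in the main population. Among the regulators 3 were higher and 4 lower of 8 in macrophage-like cells, and Bach1, the repressor of Hmox1, had 145 CPM in macrophage-like cells and 33.8 CPM in the main population (2.14, SE 0.09, edgeR adjusted p = 2.15e-10). In neutrophil-like cells Slc40a1 had 180.2 CPM against 0.246 CPM in the main population, the Nrf2 target Osgin1 had 89.9 CPM against 5.48 CPM in the main population, and the small Maf gene Mafk had 72.0 CPM against 3.24 CPM there. The wider Nrf2 list there had 5 higher and 8 lower of 22 tested, the heme and iron list 4 and 2 of 9, and the regulators 3 and 3 of 8. In the wider Nrf2 list T-like cells had 3 higher and 19 lower of 23, and NK-like cells 1 higher and 15 lower of 22, while the heme and iron list had 3 higher and 5 lower of 8 in T-like and 1 and 4 of 8 in NK-like cells. The repressor Bach2 stood against that direction, with 11.5 CPM in T-like cells, 42.2 CPM in NK-like cells and 0.736 CPM in the main population. The fourth list, other antioxidant genes, had 8 higher and 5 lower of 14 in macrophage-like cells, 4 and 5 in neutrophil-like, 4 and 9 in T-like and 2 and 8 in NK-like cells.

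The genes whose levels followed each of the 10 most closely were found over 30 sums (5 classes by 6 libraries) of log2(CPM + 1), among 13172 genes. Nfe2l2 was most like Fth1, ferritin heavy chain (Pearson r = 0.97), Jun (0.97) and Tnfaip2 (0.97). Hmox1 was most like Bnip3 (0.95), Hk2 (0.93) and Ftl1 (0.92). Slc7a11 was most like P2ry2 (0.95), Osbpl9 (0.95) and Ptgs2 (0.94), and Gsr was most like Tnfrsf23 (0.97), Arg2 (0.97) and Cd44 (0.96). Keap1 followed Ddrgk1 (0.90), Ube2e1 and Ndufs7 (0.89 each), Txnrd1 followed Nfkbiz (0.89) and Aqp9 (0.87), and Srxn1 followed Cryab (0.87), Dtx2 (0.86) and Fam45a (0.85). The closest genes of Nqo1 were Zfp37, Pde6h and Slc25a21 (0.91 to 0.92), of Gclc Dnajc11, Ccdc186 and Tex30 (0.83 to 0.90), and of Gclm Lrrc42, Twsg1 and Spats2 (0.87 to 0.90). These sums share libraries, and the values mostly follow differences between classes, so they are a description and carry no test.

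Macrophage-like cells were split by the highest of 3 marker lists into MHC-II high, Arg1 and Mmp12, and monocyte cells, each compared with the other cells of the class. A split by score is a range of cells: in 576 of 3483, 368 of 2230 and 279 of 2282 cells of these subsets the leading list exceeded the next by less than 0.25. Hmox1 and Gsr went to different subsets. In Arg1 and Mmp12 cells Hmox1 had 425.5, 174 and 335 CPM in exercise 5, 6 and 8 and 401, 517 and 427 CPM in sedentary 1, 2 and 3. In MHC-II high cells it had 76.5, 40.3 and 75.1 CPM in the exercise libraries and 60.3, 94.9 and 87.7 CPM in the sedentary ones. Every library had more Hmox1 in Arg1 and Mmp12 cells than any library had in MHC-II high cells. In monocyte cells Gsr had 272, 193 and 277 CPM in the exercise libraries and 507, 417 and 323 CPM in the sedentary ones. In MHC-II high cells Gsr had 37.3, 39.2 and 30.1 CPM in the exercise libraries and 34.6, 90.0 and 45.6 CPM in the sedentary ones.

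**Figure D2:**
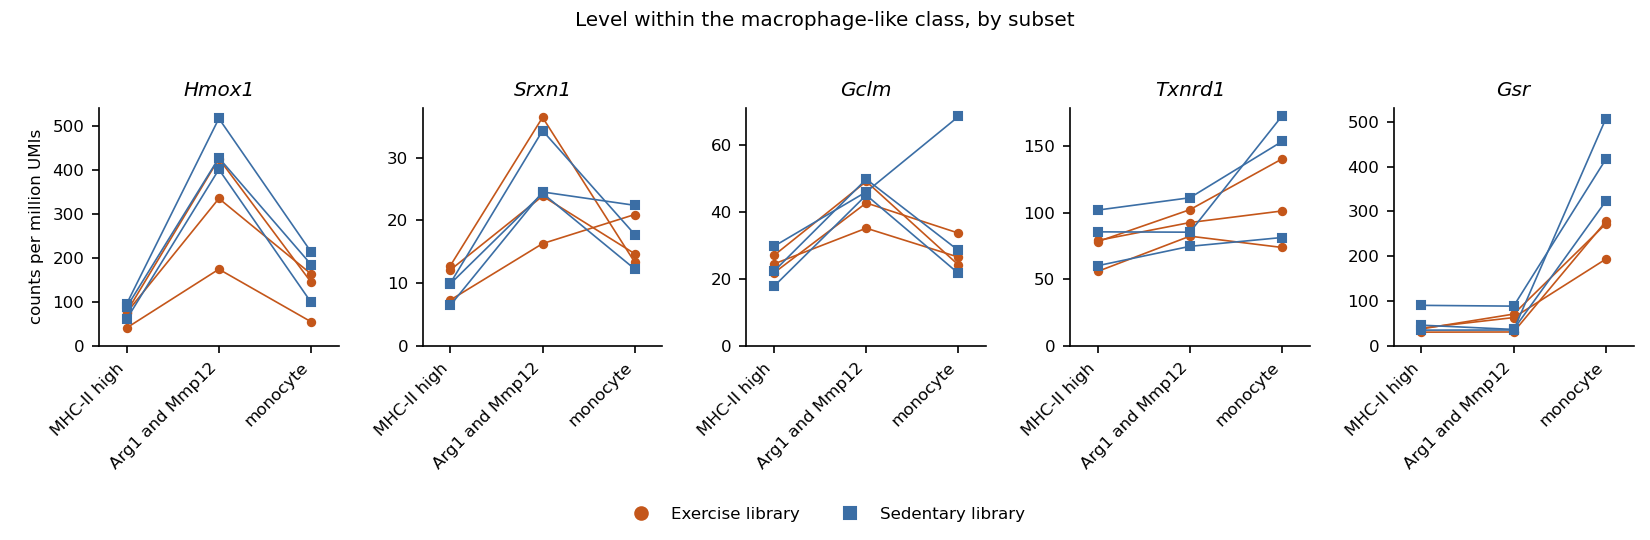
CPM (linear axes) of 5 of the genes in the 3 subsets of macrophage-like cells, with a point per library and a line joining the subsets of 1 library, coloured by group. Hmox1 stands highest in Arg1 and Mmp12 cells in every library, and Gsr in monocyte cells.

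Against the other macrophage-like cells, Arg1 and Mmp12 cells had 5 higher and 1 lower of 9 tested. Of all 9778 genes 36.5% were called, 18.4% higher and 18.1% lower. Hmox1 had 380.0 ± 117 CPM in Arg1 and Mmp12 cells and 94.9 ± 39.9 CPM in the others (log2 fold change 2.01, SE 0.10, edgeR adjusted p = 1.87e-10). Srxn1 (1.19, SE 0.14) and Gclm (0.79, SE 0.12) rose with it in 6 of 6 libraries, and Gsr fell (-1.21, SE 0.19). Gsr had 53.8 ± 23.5 CPM in Arg1 and Mmp12 cells. Of the cells in the pool it was compared with, monocyte cells had 332 ± 113 CPM and MHC-II high cells 46.1 ± 22.1 CPM. Gclc (0.61, edgeR adjusted p = 0.0178) lost its call without sedentary 3, exercise 6 or exercise 8, and Nfe2l2 (0.21, edgeR adjusted p = 0.0336) without sedentary 3, any exercise library or the library block. Slc7a11 (0.45, edgeR adjusted p = 0.0920) was not called, but it was with no filter on low counts (0.42, edgeR adjusted p = 0.000154) and without sedentary 3 (0.61, edgeR adjusted p = 0.0189). The heme and iron list was higher for 10 of 11, with Slc40a1 at 98.8 CPM in Arg1 and Mmp12 cells and 13.7 CPM in the others and Ftl1 at 7018 CPM in Arg1 and Mmp12 cells and 4194 CPM in the others. Blvrb, a biliverdin reductase (0.91, SE 0.08), and Slc48a1, a heme transporter (0.90, SE 0.09), rose too. The hypoxia list, of 20 genes with none of the 10, was higher for 16. The wider Nrf2 list was split, with 9 higher, among them Prdx1 (0.76) and Sqstm1 (0.73), and 4 lower, among them Taldo1 (-0.70) and Tkt (-0.47), of 21.

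MHC-II high cells had 0 higher and 7 lower of 9, where 38.3% of 9833 genes were called, 17.6% higher and 20.7% lower. Hmox1 had 72.5 ± 19.7 CPM in MHC-II high cells and 286 ± 82.6 CPM in the others (-1.96, SE 0.07, edgeR adjusted p = 2.30e-15), and Gsr had 46.1 ± 22.1 CPM in MHC-II high cells and 161 ± 64.3 CPM in the others (-1.82, SE 0.09, edgeR adjusted p = 2.79e-12). Srxn1 (-1.18), Gclm (-0.71), Slc7a11 (-0.60), Txnrd1 (-0.42) and Nfe2l2 (-0.22) were lower too, and Keap1 (0.01, SE 0.07) and Gclc (-0.33, SE 0.16) were not called. Slc7a11, Txnrd1 and Nfe2l2 lost their calls without the library block (edgeR adjusted p = 0.190, 0.0655 and 0.187), and Gclc was called without sedentary 2 (-0.49, edgeR adjusted p = 0.0204). The heme and iron list was lower for 10 of 11 and the wider Nrf2 list for 10 of 21, with the glutathione transferases Mgst1 (-2.28) and Gstm1 (-1.84) leading and 1 gene higher.

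Monocyte cells had 2 higher and 1 lower of 9, where 45.5% of 10196 genes were called, 23% higher and 22.5% lower. Gsr had 332 ± 113 CPM in monocyte cells and 47.8 ± 21.2 CPM in the others (2.84, SE 0.15, edgeR adjusted p = 1.00e-11), and Txnrd1 had 121 ± 40.8 CPM in monocyte cells and 82.0 ± 14.8 CPM in the others (0.59, SE 0.10). Hmox1 was lower than in the pooled others (-0.35, SE 0.08, edgeR adjusted p = 0.00174), a call that was lost without the library block. Those others include the Arg1 and Mmp12 cells (380.0 ± 117 CPM). In monocyte cells Hmox1 had 143 ± 58.2 CPM, above MHC-II high cells (72.5 ± 19.7 CPM) in every library. Slc7a11 was called higher only without exercise 5 among the alternatives run (0.49, edgeR adjusted p = 0.0147). In the wider Nrf2 list 10 were higher and 1 lower of 21, led by Mgst1 (2.27, SE 0.11) and Prdx6 (1.37, SE 0.11), while the heme and iron list had 1 higher and 7 lower of 11, with Slc40a1 at 1.68 CPM in monocyte cells and 47.2 CPM in the others. The 12 neutrophil markers summed to between 449.7 and 991 CPM in monocyte cells and between 33193 and 119467 CPM in the neutrophil-like class. They were also higher than in Arg1 and Mmp12 cells (134 to 598 CPM) and MHC-II high cells (57.1 to 147 CPM), and their part in the level of Gsr was not tested.

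Within the main population, cells with at least 5000 UMIs were ranked in each library by the mean log level of a gene list, and the upper tertile was compared with the lower tertile. None of the 10 genes is in the lists, and a tertile of a score is a range of cells. Cells in the upper tertile (the top of 3 equal parts) of the hypoxia score had more Hmox1 in every library. It had 80.4, 15.6 and 70.9 CPM in the upper tertile of exercise 5, 6 and 8, against 9.66, 11.8 and 13.9 CPM in the lower tertile of the same libraries. It had 81.1, 221 and 98.0 CPM in the upper tertile of sedentary 1, 2 and 3, against 12.0, 16.6 and 19.98 CPM in the lower tertile. Exercise 6 had the smallest difference, and its upper tertile fell within the range of the lower tertiles.

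**Figure D3:**
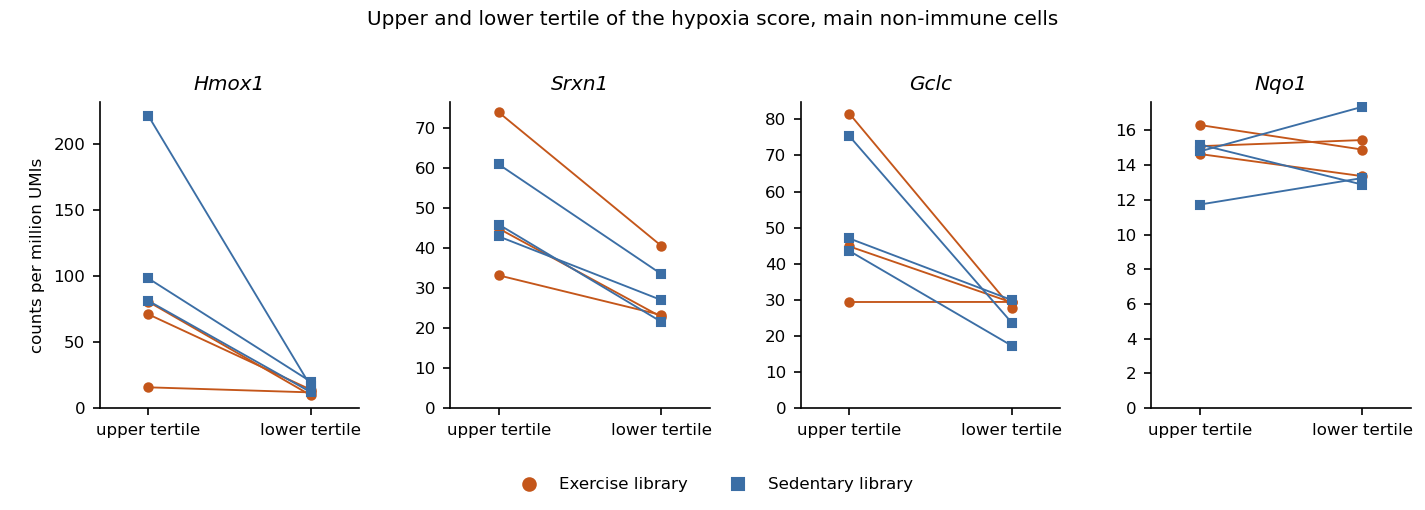
CPM (linear axes) of 4 of the genes in the upper tertile (left) and the lower tertile (right) of the hypoxia score within the main population, with a line for each of the 6 libraries, coloured by group. Hmox1 is higher in the upper tertile of all 6 libraries, by least in exercise 6 (15.6 and 11.8 CPM), while Nqo1 is higher in 3 of 6.

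Between tertiles of the hypoxia score 7 of 10 genes were higher and 0 lower, where 30.2% of 12711 genes were called, 17.1% higher and 13.1% lower. Hmox1 averaged 94.5 ± 68.1 CPM in the upper and 14.0 ± 3.74 CPM in the lower tertile (2.54, SE 0.37, edgeR adjusted p = 0.00147). Gclc had 53.6 ± 20.3 CPM in the upper and 26.2 ± 4.93 CPM in the lower tertile (1.04, SE 0.21), and Gclm had 116 ± 39.9 CPM in the upper and 72.5 ± 5.94 CPM in the lower tertile (0.69, SE 0.16), both higher in 5 of 6 libraries. In exercise 6 neither differed in that direction, with Gclm at 71.4 CPM in the upper and 78.0 CPM in the lower tertile. Srxn1 (0.90, SE 0.08) was higher in 6 of 6. Gsr (0.30, SE 0.07), Nfe2l2 (0.28, SE 0.07, edgeR adjusted p = 0.0154) and Slc7a11 (0.63, SE 0.20, edgeR adjusted p = 0.0428) rose by less or with more spread. Nfe2l2 lost its call without sedentary 3, Slc7a11 without any sedentary library or exercise 5 or 8, and these 2 and Gsr without the library block. Txnrd1 (0.19, SE 0.08), Nqo1 (0.07, SE 0.08) and Keap1 (0.04, SE 0.04) were not called. The count of called genes in this comparison fell to 2182 without sedentary 3, 2428 without sedentary 2 and 2512 without exercise 8, against 3837 with all libraries. Among the regulators 4 of 8 were higher and 0 lower: Maff (1.65, SE 0.14), Bach1 (0.64, SE 0.10), Mafg (0.36, SE 0.07) and Cul3 (0.14, SE 0.04). The 15 macrophage markers summed to between 24.3 and 43.9 CPM in the upper tertiles and between 23.7 and 40.3 CPM in the lower ones, against 16600 to 23716 CPM in macrophage-like cells.

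ATF4 is the transcription factor of the amino acid and integrated stress response, and its list of 20 targets holds none of the 10 genes. Between tertiles of the ATF4 score 7 were higher and 1 lower of 10, where 70.6% of 12553 genes were called, 36.5% higher and 34.1% lower. Slc7a11 had 55.7, 31.5 and 50.1 CPM in the upper tertile of exercise 5, 6 and 8, against 34.7, 29.5 and 35.9 CPM in the lower tertile. It had 32.6, 56.4 and 56.2 CPM in the upper tertile of sedentary 1, 2 and 3, against 13.2, 19.5 and 30.6 CPM in the lower tertile, so it was higher in 6 of 6 libraries (0.88, SE 0.16, edgeR adjusted p = 0.000829). Hmox1 (1.70, SE 0.21), Srxn1 (1.24, SE 0.08), Gsr (0.92, SE 0.07), Gclc (0.87, SE 0.16), Gclm (0.81, SE 0.11) and Txnrd1 (0.71, SE 0.05) rose as well. Nqo1 was lower in 6 of 6 libraries, with 12.1 ± 1.51 CPM in the upper and 16.2 ± 1.78 CPM in the lower tertile (-0.36, SE 0.08, edgeR adjusted p = 0.00230). Nfe2l2 (-0.08, SE 0.04) and Keap1 (0.00, SE 0.04) were not called, and Nfe2l2 was called lower without sedentary 2 (-0.10, edgeR adjusted p = 0.0238).

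The third ranking used 24 other Nrf2 targets. Here 8 of 10 were higher and 0 lower, where 57.2% of 12584 genes were called, 28.2% higher and 29% lower. Hmox1 (1.76, SE 0.27), Gclc (1.29, SE 0.19), Gclm (1.19, SE 0.17), Srxn1 (1.13, SE 0.06), Slc7a11 (1.00, SE 0.22), Nqo1 (0.77, SE 0.13), Gsr (0.73, SE 0.05) and Txnrd1 (0.56, SE 0.06) rose, each in 6 of 6 libraries. Nqo1 thus had 18.6 ± 2.20 CPM in the upper and 11.2 ± 2.39 CPM in the lower tertile of this score, the opposite direction to that along the ATF4 score. Nfe2l2 (-0.04, SE 0.03) and Keap1 (0.06, SE 0.03) were not called. Depth moved with the ATF4 score: cells of the upper ATF4 tertile had a median of 22996.5 to 34630 UMIs per library and those of the lower tertile 11666 to 19625.5. It was higher in the upper tertile of the wider Nrf2 score in 6 of 6 libraries (19346 to 28073 against 12029 to 20805.5 UMIs) and of the hypoxia score in 5 of 6, with 20344 in the upper and 21986 in the lower tertile of exercise 5. Upper tertiles had a lower median share of mitochondrial UMIs in every library for all 3 scores. With each cell thinned to 5000 UMIs before scoring, each gene of the 10 that was called between tertiles was called again, and Keap1 was called higher along the wider Nrf2 score (0.14, edgeR adjusted p = 0.0361). These tertiles still differed in the depth their cells had before thinning. For ATF4 it was 21590 to 32937.5 UMIs in the upper and 12888 to 22528.5 in the lower tertile. It was higher in the upper tertile in 6 of 6 libraries for ATF4 and for wider Nrf2, and mixed between libraries for hypoxia. The part of depth in the differences was not tested.

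**Figure D4:**
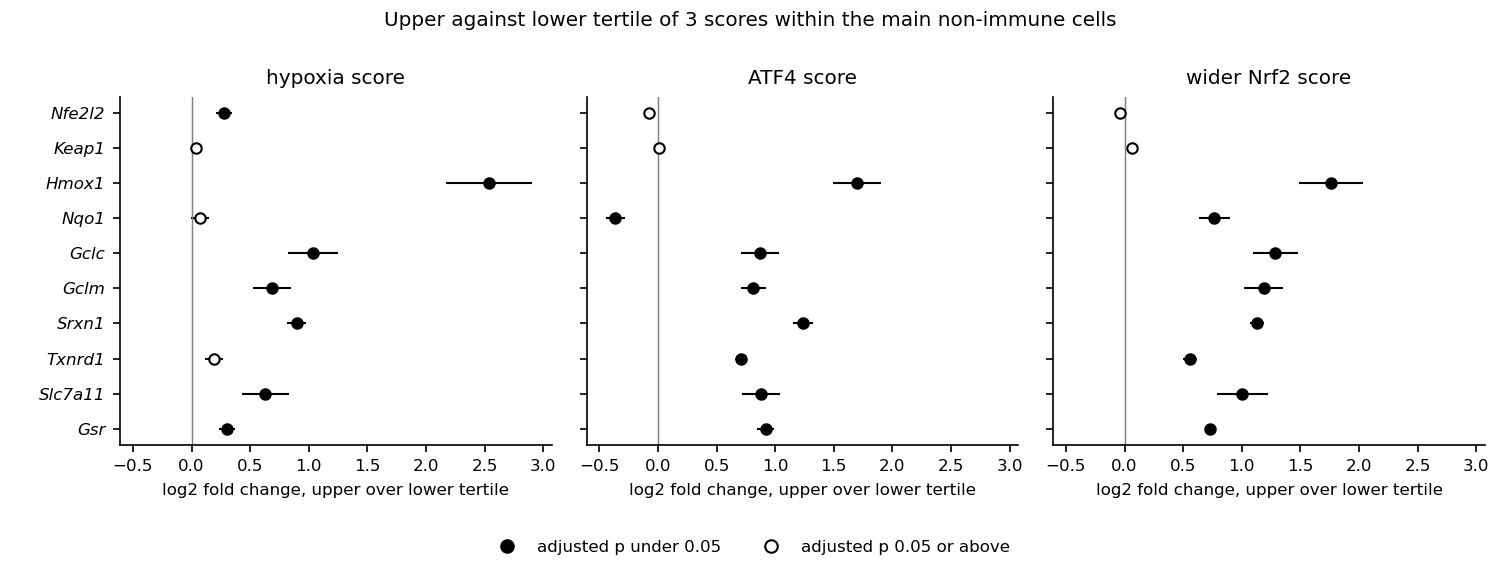
Log2 fold change of the 10 genes, upper over lower tertile of the hypoxia, ATF4 and wider Nrf2 scores in the main population, with bars of 1 standard error; filled points passed an edgeR adjusted p of 0.05. Hmox1 is furthest up for the hypoxia score (2.54), and Nqo1 is below 0 for the ATF4 score (-0.36) and above 0 for the wider Nrf2 score (0.77).

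The comparison of exercise with sedentary mice, which the design implies, called none of the 10 genes in any class. In edgeR 0 genes of the whole table passed in the whole tumour, the main population, macrophage-like and neutrophil-like cells, at 408, 591, 344 and 153 with an unadjusted p under 0.05 and 18, 35, 2 and 0 by DESeq2. A single gene passed in T-like cells, Serpinb9b (0.0107% of the genes tested; -2.20, edgeR adjusted p = 0.0187), and in NK-like cells, Ccl4 (0.0209%; 2.67, edgeR adjusted p = 2.55e-05). These 2 are named after their values were seen, and 0 genes passed in T-like cells without sedentary 2, sedentary 3, exercise 5 or exercise 8. In counts simulated from these libraries, 100 genes were changed by 1 and 100 by 2 on the log2 scale. Of those changed by 1, 57% were recovered in the whole tumour, 65% in the main population, 63% in macrophage-like and 34% in neutrophil-like cells. Adjustment runs over all genes, so these shares hold for that many changed genes and would be lower with fewer. Changes of 1 on the log2 scale in single genes could thus be missed. Nothing in the labels states that libraries came from separate mice, and the p-values of this comparison weigh the group difference against the spread between libraries.

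**Figure D5:**
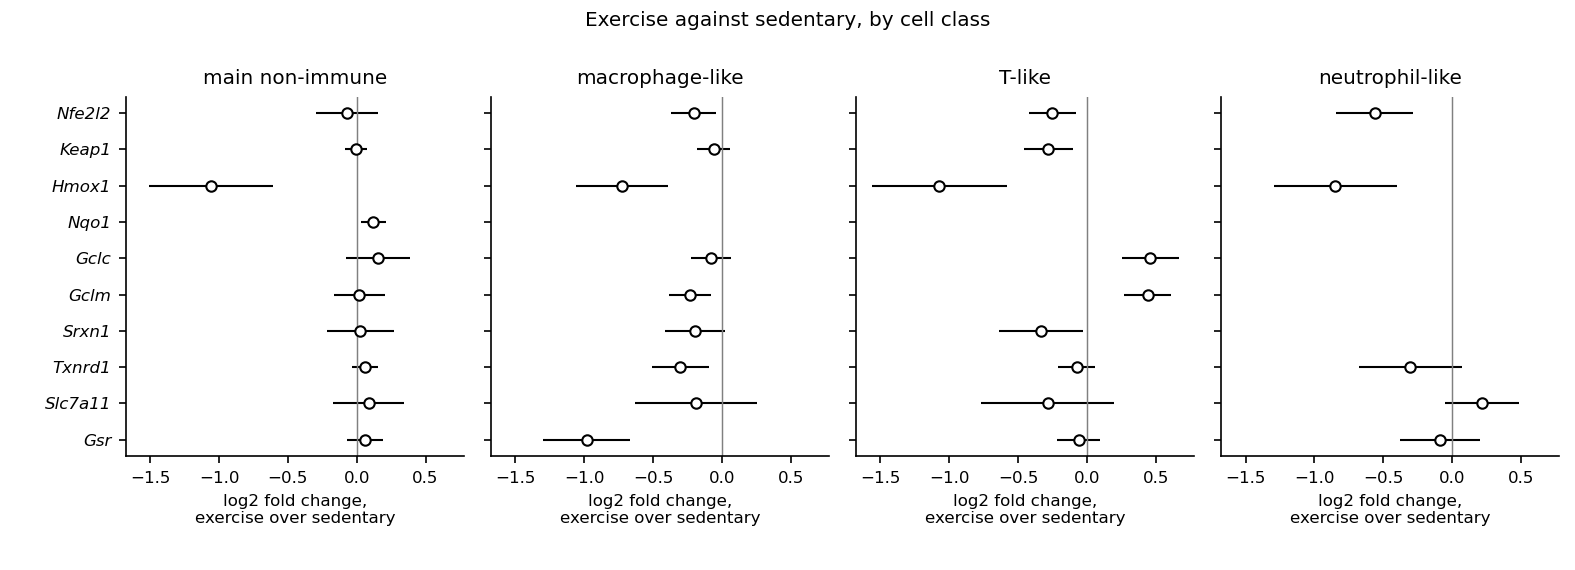
Log2 fold change of exercise over sedentary libraries for the genes tested in 4 of the classes, with bars of 1 standard error; open points did not pass an edgeR adjusted p of 0.05, which is all of them. Hmox1 lies below 0 in the main population (-1.06) and in macrophage-like (-0.73), T-like (-1.07) and neutrophil-like cells (-0.85). In neutrophil-like cells exercise 6 and exercise 8 held 3 and 5 UMIs of Hmox1.

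Hmox1 had the largest log2 difference of the genes tested in the whole tumour and in each class but macrophage-like and NK-like cells. In the main population it averaged 27.2 ± 12.7 CPM in exercise and 56.8 ± 28.2 CPM in sedentary libraries (SD, n = 3 each; -1.06, SE 0.45, unadjusted p = 0.0482, edgeR adjusted p = 0.997). The 3 exercise libraries (12.6 to 35.2 CPM) lay below the 3 sedentary ones (35.8 to 88.9 CPM), and 8.63% of all genes tested there had groups that did not overlap. Without sedentary 2 the difference was -0.58, and without sedentary 1 it was -1.31. In macrophage-like cells Hmox1 averaged 138 ± 59.9 CPM in exercise and 222 ± 49.6 CPM in sedentary libraries (-0.73, SE 0.33, edgeR adjusted p = 1.00), and the groups overlapped. The 5 erythroid genes summed to 0.111, 0.787 and 16.6 CPM in macrophage-like cells of exercise 5, 6 and 8 and to 211, 15.2 and 2.81 CPM in those of sedentary 1, 2 and 3, and their part in Hmox1 was not tested. In T-like cells Hmox1 averaged 5.70 ± 1.26 CPM in exercise and 13.1 ± 8.63 CPM in sedentary libraries (-1.07, SE 0.49), and without sedentary 2 the difference was -0.22. In the whole tumour it averaged 34.9 ± 18.03 CPM in exercise and 66.1 ± 34.0 CPM in sedentary libraries (-0.93, SE 0.50), where fewer cells of a type and less RNA per cell cannot be told apart. The summed level of the 20 hypoxia genes moved with Hmox1. In the main population it was 2624, 1572 and 2289 CPM in exercise 5, 6 and 8 and 2161, 3142 and 3102 CPM in sedentary 1, 2 and 3, and all 20 had a log2 difference below 0 (median -0.38, none called; median of all genes 0.00). In macrophage-like cells it was 2663, 1773 and 2454 CPM in the exercise libraries and 2126, 3644 and 3211 CPM in the sedentary ones. Its part in the difference of Hmox1 was not tested.

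Gsr differed most in macrophage-like cells. It had 88.2, 64.5 and 61.6 CPM in exercise 5, 6 and 8 and 105, 214 and 89.9 CPM in sedentary 1, 2 and 3, so that the groups did not overlap, as for 7.29% of the genes tested (-0.98, SE 0.32, unadjusted p = 0.0125, edgeR adjusted p = 1.00). Without sedentary 2 the difference was -0.45. The share of monocyte cells, in which Gsr is highest, was 29.2%, 20.8% and 19.0% in the exercise libraries and 19.3%, 45.8% and 26.0% in the sedentary ones. In the monocyte subset alone Gsr had 193 to 277 CPM in the exercise libraries and 323 to 507 CPM in the sedentary ones. No test and no share of all genes without overlap was computed there. The part of the subset shares in the difference of Gsr was not tested. The difference of the exercise effects between macrophage-like and main cells was -0.95 for Gsr (SE 0.23, unadjusted p = 0.00153, edgeR adjusted p = 0.927), and it passed with no filter on low counts (edgeR adjusted p = 0.00230). For Hmox1 that difference was 0.28 (SE 0.17), and 0 of 14491 genes were called, with 581 at an unadjusted p under 0.05.

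In T-like cells both subunits of glutamate-cysteine ligase were higher in each exercise library. Gclm had 37.4, 35.9 and 38.3 CPM in exercise 5, 6 and 8 and 24.5, 28.2 and 29.2 CPM in sedentary 1, 2 and 3 (0.44, SE 0.17, unadjusted p = 0.0217, edgeR adjusted p = 1.00). Gclc had 21.0, 21.9 and 23.5 CPM in the exercise libraries and 16.1, 13.2 and 19.5 CPM in the sedentary ones (0.46, SE 0.21, unadjusted p = 0.0432, edgeR adjusted p = 1.00). These are 2 of 9 genes tested, beside 8.91% of all genes without overlap, and neither passed adjustment. In the main population the 2 genes overlapped between groups, with log2 differences of 0.02 (Gclm) and 0.15 (Gclc). In neutrophil-like cells Nfe2l2 was lower in each exercise library (484 ± 64.5 CPM in exercise and 657 ± 80.6 CPM in sedentary libraries; -0.56, SE 0.28, edgeR adjusted p = 0.662). Slc7a11 was higher in each (776 ± 121 CPM in exercise and 603 ± 55.3 CPM in sedentary libraries; 0.22, SE 0.27, edgeR adjusted p = 0.929), and its difference turned to -0.05 with no filter on low counts. Groups did not overlap for 14.6% of the genes tested in this class. Counts were small: exercise 6 and exercise 8 held 12 and 21 UMIs of Nfe2l2 and 20 and 35 of Slc7a11. The 12 neutrophil markers of the class did not overlap either, with 65267, 33193 and 63891 CPM in exercise 5, 6 and 8 and 119467, 99232 and 66668 CPM in sedentary 1, 2 and 3, and their part in these differences was not tested.

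None of the other genes of the 10 was called between the groups. Of the 10 log2 differences in the main population 7 were above 0 and 3 below (median 0.04), and apart from Hmox1 they lay between -0.07 (SE 0.23, Nfe2l2) and 0.15 (SE 0.23, Gclc). Keap1 had 47.5, 50.5 and 48.6 CPM in the exercise libraries and 49.7, 52.6 and 45.4 CPM in the sedentary ones, and Txnrd1 had 102, 95.4 and 84.4 CPM in the exercise libraries and 87.5, 98.6 and 85.2 CPM in the sedentary ones. In macrophage-like cells all 9 differences were below 0 (median -0.20; median of all genes -0.01), none called. NK-like cells allowed tests of 4 of the 10, which lay between -0.21 and 0.02, and 8.73% of all genes tested there had groups that did not overlap. In the whole tumour no gene of the 10 had groups that did not overlap, beside 6.76% of all genes. No gene of the 4 pathway lists was called either. Those with the smallest p in the main population were Gpx1 (0.40, SE 0.10) and Prdx4 (-0.16) of the other antioxidant list, Mgst1 (-0.55, SE 0.15) and Gsta4 (-1.46) of the wider Nrf2 list, Ftl1 (-0.26, SE 0.09) and Slc40a1 (-0.84) of the heme and iron list, and Bach2 (-0.44) and Nfe2l3 (0.74) of the regulators. In macrophage-like cells they were Gstm1 (-0.41), Prdx6 (-0.59), Cd163 (0.98), Ftl1 (-0.25), Glrx (-0.23), Txnip (0.18), Mafg (-0.18) and Bach1 (-0.14).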

How the data were processed

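Single cells of mouse tumours were profiled in 6 libraries by droplet 3′ sequencing (3 exercise and 3 sedentary libraries). The deposited matrices hold UMI counts per gene and barcode that the authors made, per the submitters' processing notes with Cell Ranger 6.1.2 on mm10, while the matrix headers name software version 3.1.0. No value was normalized before deposit, per the file headers and the whole-number values. Every one of their count columns was used. A barcode was kept from 300 genes and 500 UMIs upward if no more than 20% of its UMIs were mitochondrial, and 984 called doublets were removed (Scrublet in scanpy 1.11.5), which marked 1.14% to 2.74% of cells where the rate entered was 5.76% to 8.06%. Immune classes needed at least 2 leukocyte markers (of Ptprc, Cd52, Laptm5, Coro1a and Cd53), summing to 10 or more UMIs per 10000. They also needed at least 3 class markers and a limit per 10000 UMIs. Stromal classes had the same class rule but fewer than 5 leukocyte-marker UMIs per 10000. The main population had fewer than 5, matched no other class and had at least 2 of 8 markers, without a limit. These were Cspg4, Cdh2, Nes, Prrx1, Mitf, Axl, Pdgfra and Tnc. Exactly 2 were found in 3636 of its 29509 cells. Classes were compared with at least 20 cells in every library. Counts summed per class and library were tested by edgeR 4.0.16 in R 4.3.3 (quasi-likelihood, TMM, filterByExpr, Benjamini-Hochberg adjustment over all genes, threshold 0.05), with DESeq2 1.42.0 as an alternative and scipy 1.17.1 for exact tests. Class, subset and score comparisons carried library as a block, since both sums come from the same library; the standard error of a log2 fold change was its size divided by the root of the F statistic. Exercise and sedentary libraries are separate samples. The tests were first run on simulated counts with known changes. Named were all 10 genes, the genes past the threshold in each pathway list (at most 5 with the smallest p, otherwise 2 with the smallest unadjusted p), and the 3 most alike for each, of which 1 gene is not reported here. The genes and lists were chosen with earlier results of these data known.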

Additional observations from a re-analysis of the deposited data

How the results depend on the processing

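Of 271 results called for the 10 genes and the pathway lists, 0 changed direction under any alternative run for them, and 38 were no longer called under at least 1 of these. The alternatives were DESeq2 size factors, no filter on low counts, a 10% mitochondrial limit, doublets kept and a stricter gate. Others were no library block, thinning, leaving out each library, and the DESeq2 test. That test was run for the exercise comparisons and for classes against the main population. The stricter gate was not run for the macrophage-like subsets or the score tertiles, and thinning was run for the score tertiles only. The 10% mitochondrial limit and doublets kept were run for the exercise comparisons only. No gene of the 10 or of the pathway lists was called there, so none of the 271 called results was tested under either setting. Comparisons of dendritic-like and mast-like cells were not run, since their smallest library held 7 and 8 cells and 20 were needed. No paired analysis was possible because exercise and sedentary libraries share no replicate number. The cause of each change below was not tested.

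Counts of called genes between exercise and sedentary libraries moved with the test and the filter. DESeq2 called 18 in the whole tumour, 35 in the main population and 2 in macrophage-like cells, against 0 each by edgeR. Without the filter edgeR called 2 in the main population, 5 in macrophage-like, 29 in T-like, 23 in NK-like and 12 in neutrophil-like cells, and 31 for the difference of the exercise effects. With doublets kept it called 0 in T-like cells. With 1 library left out the counts ran over 0 to 1 in macrophage-like (1 without exercise 8), 0 to 3 in T-like (3 without exercise 6), 1 to 12 in NK-like (12 without sedentary 1, 6 without sedentary 2, 2 without exercise 5) and 0 to 12 in neutrophil-like cells (12 without sedentary 3), and over 0 to 4 for the difference of effects (4 without exercise 5).

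Without the library block, the count fell to 2067 from 3762 between MHC-II high and other cells, to 1269 from 3837 between hypoxia tertiles and to 3864 from 7202 between wider Nrf2 tertiles. It was 4055 for the last with thinned cells. The hypoxia count ran over 2182 to 4478 with 1 library left out. Among the 10 genes, the calls lost without the block were Nfe2l2 and Slc7a11 in macrophage-like cells, Gclc and Srxn1 in neutrophil-like cells, Nfe2l2, Txnrd1 and Slc7a11 in MHC-II high cells, Nfe2l2 in Arg1 and Mmp12 cells, Hmox1 in monocyte cells, and Nfe2l2, Slc7a11 and Gsr between hypoxia tertiles. It changed 1 other call among them, Keap1 in NK-like cells, which was then called lower (edgeR adjusted p = 0.0398).

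Sign changes were seen only in log2 differences that had not been called. Slc7a11 in the whole tumour (-0.0018) became 0.0013 with DESeq2 size factors, 0.0037 with no filter and 0.0012 with DESeq2. Between exercise and sedentary libraries Keap1 became 0.00011 in the main population at the 10% limit. With doublets kept, Slc7a11 became 0.28 in T-like cells, Nfe2l2 0.0098 and Keap1 -0.074 in NK-like cells. With the stricter gate Mafk became 0.0071 in T-like cells and Txnrd1 0.0097 in NK-like cells. With no filter Slc7a11 became -0.049 and Cul3 -0.023 in neutrophil-like cells. In macrophage-like against main cells Txnrd1 became 0.016 without the library block. In monocyte cells Gclm became -0.0024 with DESeq2 size factors and -0.036 with no filter, and Srxn1 -0.015 with no filter. Between ATF4 tertiles Keap1 became -0.012 with DESeq2 size factors and -0.032 with thinned cells, and between wider Nrf2 tertiles Nfe2l2 became 0.0053 with thinned cells.

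With 1 library left out, differences between exercise and sedentary libraries in the whole tumour ran over -0.43 to 0.073 for Nfe2l2, -0.049 to 0.027 for Keap1, -0.064 to 0.25 for Gclc, -0.21 to 0.067 for Gclm, -0.27 to 0.13 for Srxn1, -0.033 to 0.087 for Txnrd1, -0.24 to 0.17 for Slc7a11 and -0.20 to 0.14 for Gsr. The same in the main population ran over -0.39 to 0.078 for Nfe2l2, -0.042 to 0.052 for Keap1, -0.080 to 0.33 for Gclc, -0.21 to 0.14 for Gclm, -0.28 to 0.21 for Srxn1, -0.14 to 0.27 for Slc7a11 and -0.038 to 0.21 for Gsr. In macrophage-like cells they ran over -0.13 to 0.0062 for Keap1, -0.39 to 0.0077 for Srxn1, -0.47 to 0.60 for Slc7a11, -0.26 to 0.075 for Bach1 and -0.38 to 0.029 for Glrx. In T-like cells they ran over -0.83 to 0.14 for Slc7a11, -0.14 to 0.021 for Cul3 and -0.34 to 0.049 for Mafk. In NK-like cells they ran over -0.13 to 0.20 for Keap1, -0.35 to 0.11 for Txnrd1 and -0.20 to 0.32 for Gsr. In neutrophil-like cells they ran over -0.30 to 0.045 for Gsr, -0.038 to 0.23 for Cul3 and -0.16 to 0.55 for Slc40a1. The difference of effects ran over -0.26 to 0.021 for Nfe2l2, -0.11 to 0.013 for Keap1, -0.26 to 0.48 for Nqo1 and -0.57 to 0.33 for Slc7a11. Txnrd1 in macrophage-like against main cells ran over -0.11 to 0.043. Keap1 ran over -0.045 to 0.036 in MHC-II high, -0.012 to 0.13 in Arg1 and Mmp12 and -0.11 to 0.047 in monocyte cells, and over -0.028 to 0.023 between ATF4 tertiles. Txnrd1 ran over -0.020 to 0.14 in Arg1 and Mmp12 cells, and in monocyte cells Gclm ran over -0.23 to 0.13 and Srxn1 over -0.12 to 0.18.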

Other observations

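The share of cells with a UMI of Slc7a11 depended on depth. With each cell thinned to 2000 UMIs, 40.6% of neutrophil-like cells (95% exact interval 23.7% to 59.4%), 10.6% of macrophage-like cells, 1.03% of T-like cells, 0.391% of NK-like cells and 6.50% of the main population had one. Only 32 neutrophil-like cells were deep enough for this, and 676 were left out. Without thinning the shares were 44.8% in neutrophil-like, 17.5% in macrophage-like, 1.58% in T-like cells, 1.90% in NK-like cells and 32.3% in the main population.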
